A study of Mus musculus with 9 samples.

Results

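A set of 10 transcripts that mark simple epithelium, bile duct cells and liver progenitors were followed in Hepa 1-6 cells, a mouse hepatoma line. They were chosen by symbol from the 53647 rows of a count table: the keratins Krt7, Krt8, Krt18, Krt19 and Krt23, and the markers Epcam, Sox9, Spp1, Cd24a and Prom1. All 10 had a row, and 9 had enough counts to be tested among 13661 genes, Krt23 being the exception. Their identifiers in the table are ENSMUSG00000023039 (Krt7), ENSMUSG00000049382 (Krt8), ENSMUSG00000023043 (Krt18), ENSMUSG00000020911 (Krt19), ENSMUSG00000006777 (Krt23), ENSMUSG00000045394 (Epcam), ENSMUSG00000000567 (Sox9), ENSMUSG00000029304 (Spp1), ENSMUSG00000047139 (Cd24a) and ENSMUSG00000029086 (Prom1). The study sequenced mRNA libraries of 9 samples. Cells in which Usp5, a deubiquitinase gene, had been targeted by a lentiviral CRISPR guide gave 3 samples, as did cells in which Ythdf1, a reader of N6-methyladenosine in mRNA, had been targeted by CRISPR/Cas9/EGFP plasmids, and cells with a control guide. Knockout cells were grown from single cells by serial dilution, and several clones were checked for loss of the protein by immunoblot. The labels do not say how many clones were sequenced or whether control cells were cloned, so a difference between a knockout and control and a difference between clones cannot be told apart. Usp5 and Ythdf1 were also targeted by different means, so between the knockouts the gene targeted and the way of targeting cannot be told apart. No treatment or time point was given for any group.

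Keratin filaments are built from pairs of an acidic type I keratin (here Krt18, Krt19 and Krt23) and a basic type II keratin (Krt7 and Krt8). Krt8 and Krt18 form the filament of hepatocytes, whereas cells of the bile duct add Krt7 and Krt19. Epcam, the transcription factor Sox9, osteopontin (Spp1), the sialoglycoprotein Cd24a and prominin 1 (Prom1, also called CD133) mark bile duct cells and the progenitor cells that appear in injured liver, and several of them are found in liver tumours.

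The sequence just upstream of 4 of these genes is shown because they carry some of the results that follow. Krt8 and Krt18 are neighbours whose ratio was lowest in the Ythdf1 knockout libraries, Epcam was higher in both knockouts, and Spp1 moved in opposite directions in them. Each window runs from 250 bases before to 50 bases after a start site in RefSeq (GRCm38.p6; 7 of the 10 genes had an entry, and where a gene has several the first along the chromosome is printed). Krt19, Sox9 and Cd24a had no entry. What is printed is the reference sequence, not one read from these cells. Capitals mark matches, on either strand, to 7 short motifs: TATAAA for the TATA box, CCAAT for the CCAAT box, GGGCGG for the GC box, TGANTCA for AP-1, GGAATG for TEAD, TGGGAA for RBPJ and ACAATG for SOX.
Krt8 (chr15:102004293-102004592, minus strand): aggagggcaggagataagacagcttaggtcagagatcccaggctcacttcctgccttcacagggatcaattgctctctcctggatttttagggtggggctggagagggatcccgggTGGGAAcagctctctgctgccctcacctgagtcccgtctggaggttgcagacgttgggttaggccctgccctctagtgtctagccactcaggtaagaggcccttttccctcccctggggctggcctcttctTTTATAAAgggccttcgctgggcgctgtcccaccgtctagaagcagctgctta
Krt18 (chr15:102027966-102028265, plus strand): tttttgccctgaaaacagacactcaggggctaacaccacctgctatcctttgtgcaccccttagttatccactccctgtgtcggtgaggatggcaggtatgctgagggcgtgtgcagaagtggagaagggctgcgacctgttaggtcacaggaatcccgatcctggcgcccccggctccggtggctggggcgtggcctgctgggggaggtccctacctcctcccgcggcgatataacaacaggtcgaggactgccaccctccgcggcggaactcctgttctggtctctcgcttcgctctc
Epcam (chr17:87635729-87636028, plus strand): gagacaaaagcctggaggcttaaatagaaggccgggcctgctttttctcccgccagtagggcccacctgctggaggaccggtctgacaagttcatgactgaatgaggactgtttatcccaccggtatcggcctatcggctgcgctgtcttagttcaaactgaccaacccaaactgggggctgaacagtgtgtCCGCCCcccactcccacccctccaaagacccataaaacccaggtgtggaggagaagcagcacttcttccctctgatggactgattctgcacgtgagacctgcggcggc
Spp1 (chr5:104434861-104435160, plus strand): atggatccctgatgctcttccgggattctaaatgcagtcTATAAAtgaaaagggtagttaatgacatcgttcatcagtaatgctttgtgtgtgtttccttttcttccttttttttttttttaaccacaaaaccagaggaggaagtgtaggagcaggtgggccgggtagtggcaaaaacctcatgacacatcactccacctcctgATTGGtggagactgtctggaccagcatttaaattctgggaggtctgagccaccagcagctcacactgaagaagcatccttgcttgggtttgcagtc
In the Krt8 window, TATAAA matched on both strands in overlapping positions, beginning at -3 and -1 from the start site, and TGGGAA matched once. TATAAA is found in 13.6% and TGGGAA in 25.6% of 32851 mouse promoter windows of this length. The Krt18 window held none of the 7 motifs. Epcam had 1 match to GGGCGG, which 35.7% of windows hold. Spp1 had 1 match each to TATAAA, at -211, and CCAAT, at -46, and CCAAT is present in 37.4% of windows. A match is a run of letters and not a bound site.

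The libraries held between 24760877 and 42989715 counts. In the Usp5 knockout, Usp5 itself stood at 54.0% of its control level (edgeR, adjusted p = 0.000316, with the method of Benjamini and Hochberg in all such values), so that a good part of its transcript was still present. In the Ythdf1 knockout, Ythdf1 stood at 25.6% (adjusted p = 1.21e-07 in the same test). Mitochondrial transcripts took 3.67% to 6.14% of counts in the Usp5 knockout, 3.51% to 4.96% in the Ythdf1 knockout and 2.32% to 5.91% in controls, where replicate 3 was the highest and stood apart from the other 2. In bulk RNA, fewer cells of a type and less RNA per cell cannot be told apart. As background, 19.8% of tested genes passed an adjusted p of 0.05 in the Usp5 knockout against control, 46.5% in the Ythdf1 knockout against control and 48.5% between the knockouts.

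Per transcript length, Krt18 and Krt8 were the highest members in every library. Krt18 averaged 1676 ± 76.1 TPM, the level corrected for transcript length and library total, in the Usp5 knockout, 1860 ± 68.5 TPM in the Ythdf1 knockout and 1575 ± 135.5 TPM in controls (SD, n = 3 each). Krt8 averaged 959 ± 53.1, 810 ± 45.2 and 886 ± 121 TPM in the same order of groups. Spp1 followed, with 468 ± 77.9 TPM in the Usp5 knockout, 197 ± 17.8 TPM in the Ythdf1 knockout and 378 ± 16.6 TPM in controls.

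Below these, Cd24a and Krt7 lay close together. In controls every library had more Cd24a (117 to 173.5 TPM) than Krt7 (73.0 to 84.9 TPM). In the Usp5 knockout their ranges overlapped, at 104 to 139.5 TPM for Cd24a and 118 to 129.6 TPM for Krt7, and in the Ythdf1 knockout they overlapped again, at 61.2 to 79.8 and 64.0 to 73.9 TPM. Sox9 averaged 71.2 ± 15.2 TPM in the Usp5 knockout, 46.0 ± 6.70 TPM in the Ythdf1 knockout and 39.0 ± 10.8 TPM in controls. Epcam and Krt19 were scarce in controls, at 7.36 ± 0.509 and 2.37 ± 0.333 TPM. Prom1 and Krt23 were close to absent there, at 0.246 ± 0.0339 and 0.0901 ± 0.0789 TPM, so that of the duct markers these cells held Spp1, Cd24a, Krt7 and Sox9 in quantity and Krt19, Epcam, Krt23 and Prom1 hardly or not at all.

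**Figure D1:**
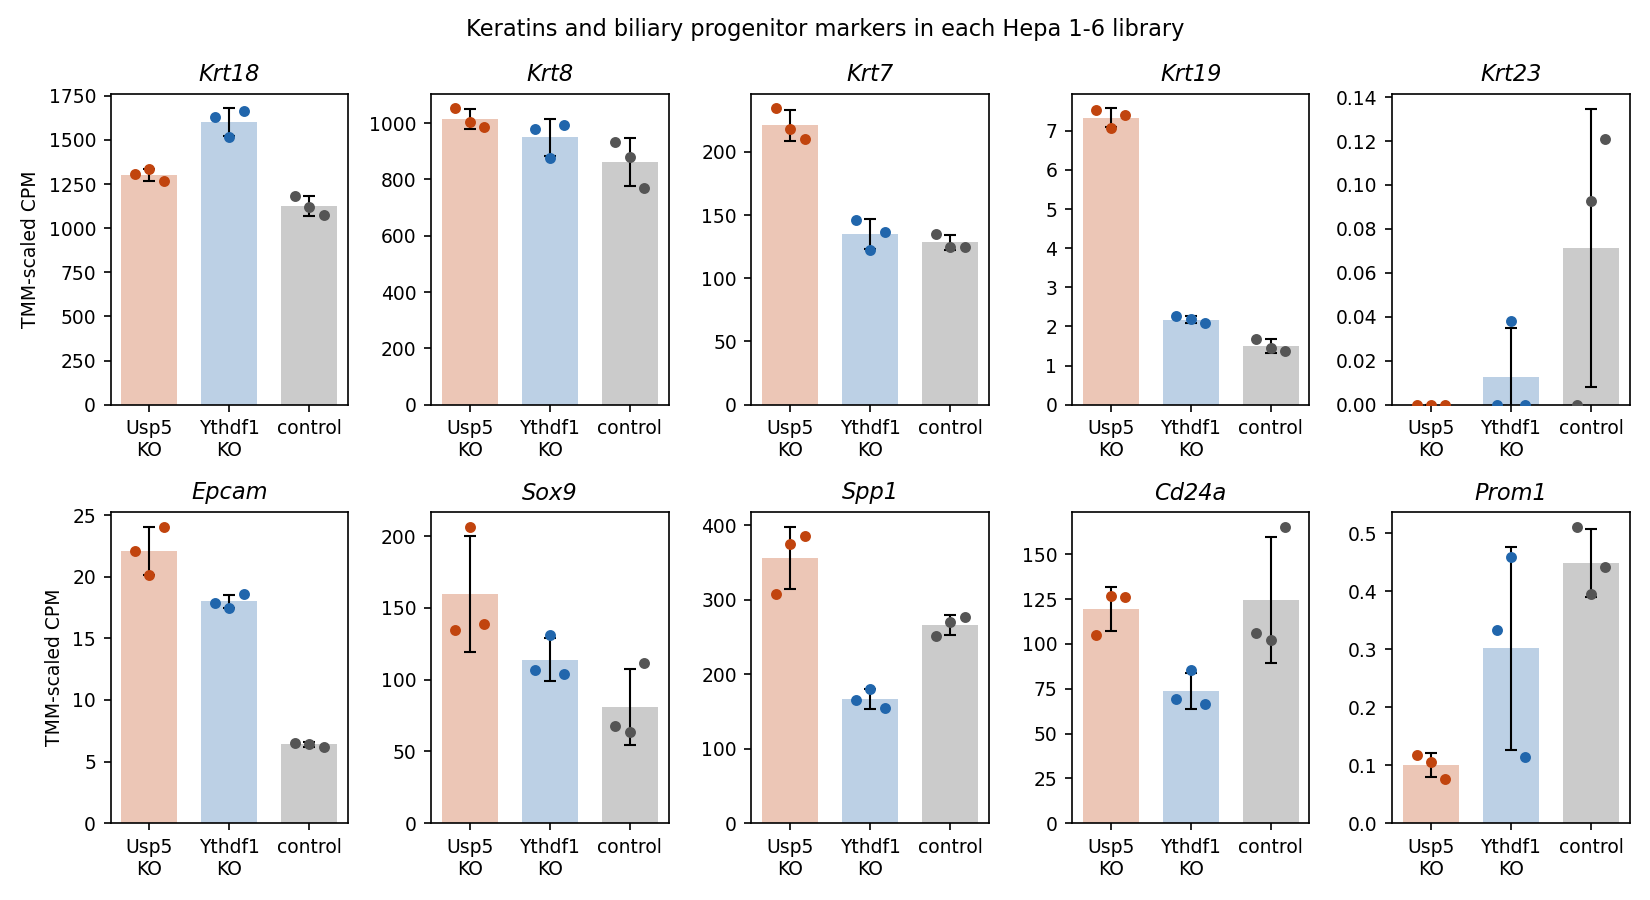
Level of each member in each library, in CPM (counts scaled to the library total with TMM factors), with a separate axis for each gene; dots are libraries, bars are means and lines are SD (n = 3). Krt19 and Epcam dots of the Usp5 knockout all lie above those of the other groups, and Spp1 dots of the Ythdf1 knockout all lie below.

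The first comparison asked which markers differ when Usp5 is targeted. Both bile duct keratins and 3 of the other markers were higher: Krt19 4.85-fold, Epcam 3.45-fold, Sox9 1.98-fold, Krt7 1.72-fold and Spp1 1.34-fold. Prom1, already scarce, was lower. It reached the low-count filter in controls but in no Usp5 knockout library, so its place in the following counts is no support. Of 9 tested members, 5 were higher, 1 was lower and 3 (Krt8, Krt18 and Cd24a) did not pass, against 9.96% higher and 9.8% lower among all tested genes. The median log2 fold change was 0.42 for the 9 and -0.01 for all genes. CPM ranges did not overlap for 8 of the 9, against 33.2% of all tested genes.

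Krt19, the type I keratin of bile ducts, stood at 7.54, 7.07 and 7.40 CPM in the Usp5 knockout and at 1.69, 1.44 and 1.37 CPM in controls. All 3 knockout libraries lay far above all 3 controls. The log2 fold change was 2.28 ± 0.14 (SE; edgeR, adjusted p = 3.88e-06), a size that 1.79% of all tested genes reached. Krt7, the type II keratin with which Krt19 is found in ducts, had 234, 218 and 210.5 CPM in the Usp5 knockout and 135.1, 125 and 125 CPM in controls. The groups did not overlap, and the log2 fold change was 0.79 ± 0.09 (SE; edgeR, adjusted p = 0.000159).

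The more abundant pair did not pass. Krt8 had 1053, 1005 and 987 CPM in the Usp5 knockout and 935, 880.5 and 770 CPM in controls, and Krt18 had 1306, 1335 and 1265 CPM in the knockout and 1183, 1122 and 1073 CPM in controls. Neither pair of ranges overlapped, yet neither gene passed the test, at log2 fold changes of 0.24 ± 0.09 and 0.21 ± 0.08 (SE; edgeR, adjusted p = 0.104 and 0.0887). Both passed with DESeq2 (adjusted p = 0.0403 and 0.00907), and Krt8 also passed after a correction for trends on GC content and gene length, at 0.19 (adjusted p = 0.0465).

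Epcam, a homophilic adhesion molecule of epithelial and progenitor cells, had 22.1, 20.1 and 24.04 CPM in the Usp5 knockout and 6.54, 6.43 and 6.20 CPM in controls. The lowest knockout library was above the highest control, with a log2 fold change of 1.79 ± 0.09 (SE; edgeR, adjusted p = 1.51e-06). Sox9, a transcription factor that marks bile duct cells, had 135, 207 and 139 CPM in the knockout and 67.9, 63.8 and 111 CPM in controls. The highest control came close to the lowest knockout library. Its log2 fold change was 0.98 ± 0.23 (SE; edgeR, adjusted p = 0.0129), and it did not pass without control replicate 1 (adjusted p = 0.0536), control replicate 2 (0.061) or Usp5 knockout replicate 2 (0.0519).

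Within each group Sox9 was highest in the library with the most mitochondrial transcripts: replicate 2 of the Usp5 knockout (6.14% mitochondrial), replicate 2 of the Ythdf1 knockout (4.96%) and control replicate 3 (5.91%). Without control replicate 3 its log2 fold change in the Usp5 knockout was 1.28. Cd24a was likewise highest in the same Ythdf1 knockout and control libraries, while in the Usp5 knockout replicates 2 and 3 were nearly equal in CPM and replicate 3 was highest in TPM. The part of mitochondrial content in the Sox9 and Cd24a values was not tested.

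Spp1, a secreted integrin ligand, had 308, 375 and 385 CPM in the Usp5 knockout and 251, 270 and 277 CPM in controls. Every knockout library was above every control, by a small margin, and the log2 fold change was 0.42 ± 0.10 (SE; edgeR, adjusted p = 0.0163). It did not pass without control replicate 1 (adjusted p = 0.0671), control replicate 2 (0.0547) or Usp5 knockout replicate 2 (0.0728). Cd24a, a glycosylphosphatidylinositol-anchored sialoglycoprotein, had 105, 127 and 126 CPM in the knockout and 106, 102 and 165 CPM in controls. The groups overlapped (log2 fold change -0.06 ± 0.18 SE; edgeR, adjusted p = 0.85), and the sign turned without control replicate 3, at 0.20 (adjusted p = 0.232).

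Prom1, a pentaspan membrane glycoprotein used to isolate progenitor-like liver tumour cells, had 5, 3 and 2 counts in the Usp5 knockout and 23, 17 and 11 counts in controls. The control counts were 4.39 times those of the knockout after scaling, with a 95% counting interval from 2.20 to 9.69. Prom1 reached the low-count filter of 0.352 CPM in all 3 controls, in 1 Ythdf1 knockout library and in no Usp5 knockout library, so its pass in this comparison (edgeR, adjusted p = 0.0151) is no separate support. It was lost without control replicate 1 (adjusted p = 0.0584) or Usp5 knockout replicate 2 (0.0529). Krt23, a type I keratin, had 0 counts in all 3 Usp5 knockout libraries and 0, 4 and 3 counts in controls. After scaling, the control counts were 2.01 times a floor of 3 counts over the Usp5 knockout group. Counting error in the 7 control counts allows a ratio of control to knockout down to 1.24 (95% interval).

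Cells with Ythdf1 targeted were compared with the same controls. Epcam was again higher, 2.81-fold, and Krt18 and Krt19 were higher by 1.42-fold and 1.44-fold. Spp1 and Cd24a were lower, at 62.7% and 59.3% of control. Of the 9 tested members, 3 were higher, 2 were lower and 4 (Krt7, Krt8, Sox9 and Prom1) did not pass, against 23.7% higher and 22.8% lower among all tested genes, so the share that passed was near that of all genes. CPM ranges did not overlap for 5 of the 9, against 57.1% of all tested genes. The median log2 fold change was 0.14, and 0.02 for all genes.

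Epcam had 17.9, 17.5 and 18.6 CPM in the Ythdf1 knockout, against 6.54, 6.43 and 6.20 CPM in controls. The groups lay far apart, and the log2 fold change was 1.49 ± 0.09 (SE; edgeR, adjusted p = 3.59e-06). Epcam passed under all 18 alternative settings, with log2 fold changes between 1.24 and 1.51.

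Krt18 had 1627, 1514 and 1663 CPM in the Ythdf1 knockout, against 1183, 1122 and 1073 CPM in controls. All knockout libraries were above all controls, with a log2 fold change of 0.51 ± 0.08 (SE; edgeR, adjusted p = 0.000607). After the GC and length correction the value was 0.13 (adjusted p = 0.195), and Krt18 no longer passed. Its partner Krt8 had 979, 875 and 995 CPM in the knockout, against 935, 880.5 and 770 CPM in controls, with overlapping ranges. Its log2 fold change was 0.14 ± 0.09 (SE; edgeR, adjusted p = 0.247), and after that correction -0.21 (adjusted p = 0.0204), so its direction depends on the processing. The transcripts of Krt8, Krt18 and Krt19 are rich in GC, at 57.1%, 56.4% and 57.6% against a median of 49.6% for tested genes, and Krt18 is short, at 1437 bases against a median of 2419.

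Krt19 had 2.26, 2.18 and 2.08 CPM in the Ythdf1 knockout, against 1.69, 1.44 and 1.37 CPM in controls. The ranges did not overlap, and the log2 fold change was 0.53 ± 0.15 (SE; edgeR, adjusted p = 0.0147). The call was lost under 6 of 18 alternatives, among them leaving out control replicate 2 (adjusted p = 0.0517) or Ythdf1 knockout replicate 1 (0.0646) and the GC and length correction, which gave 0.12 (0.573). Krt7 had 146, 123 and 137 CPM in the knockout, against 135.1, 125 and 125 CPM in controls, and did not pass (log2 fold change 0.07 ± 0.09 SE; edgeR, adjusted p = 0.498). Krt23 had 0, 1 and 0 counts in the knockout, against 0, 4 and 3 in controls, where scaled counts were 4.94 times as high with a 95% counting interval from 0.634 to 222.

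Spp1 had 166, 180 and 154 CPM in the Ythdf1 knockout, against 251, 270 and 277 CPM in controls. No knockout library reached the lowest control, and the log2 fold change was -0.67 ± 0.10 (SE; edgeR, adjusted p = 0.000509). Cd24a had 69.2, 85.4 and 66.8 CPM in the knockout, against 106, 102 and 165 CPM in controls. Its ranges were also apart, with a log2 fold change of -0.75 ± 0.18 (SE; edgeR, adjusted p = 0.00633). Control replicate 3 was the highest library for Cd24a; without it the log2 fold change was -0.50 (adjusted p = 0.00607).

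Sox9 had 107, 131 and 104 CPM in the Ythdf1 knockout, against 67.9, 63.8 and 111 CPM in controls, and control replicate 3 lay within the knockout range. It did not pass (log2 fold change 0.49 ± 0.23 SE; edgeR, adjusted p = 0.0971). It passed without control replicate 3, at 0.79 (adjusted p = 0.00481), with no low-count filter (0.0176) and after the GC and length correction (0.0453). Prom1 had 9, 12 and 3 counts in the knockout, against 23, 17 and 11 in controls, and did not pass (edgeR, adjusted p = 0.3).

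**Figure D2:**
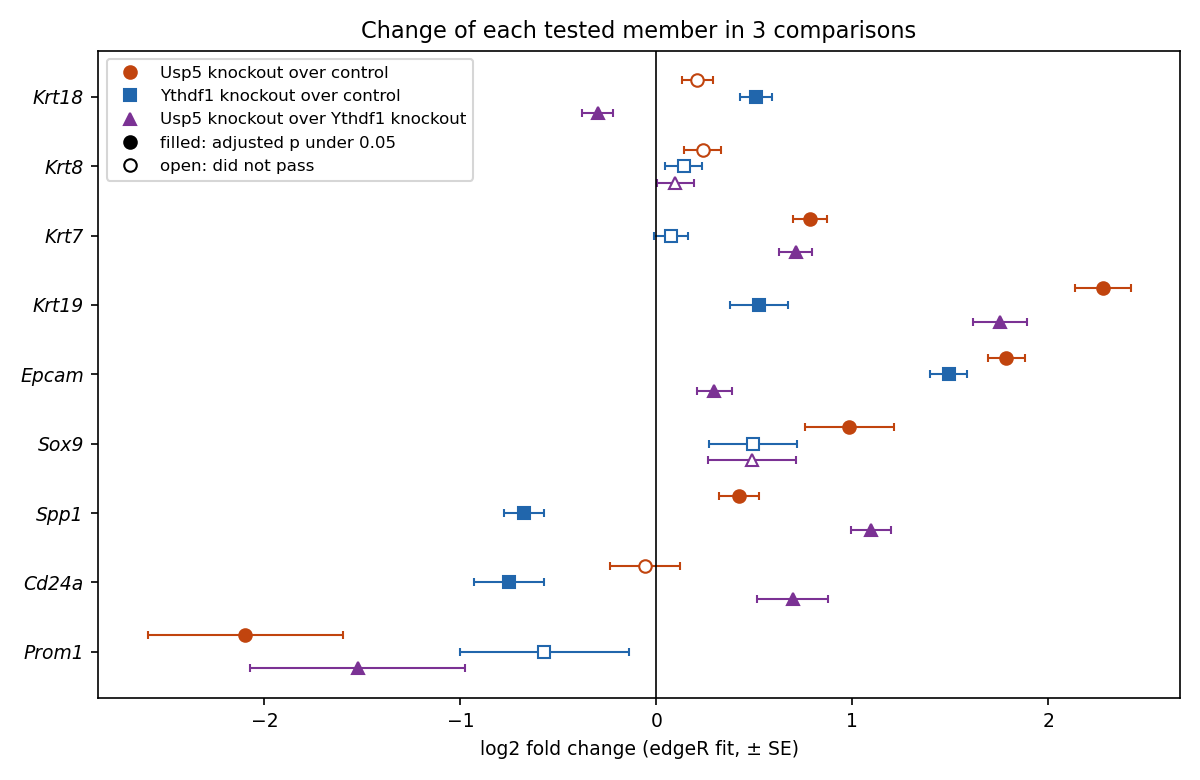
Log2 fold change with its SE for the 9 tested members in 3 comparisons (x axis); filled symbols passed an adjusted p of 0.05. Epcam lies right of 0 for both knockouts, while Spp1 lies right for the Usp5 knockout (0.42) and left for the Ythdf1 knockout (-0.67).

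The knockouts were then compared with each other, which is also the test of whether their changes differ, since both share their controls. Krt19 was 3.37-fold, Spp1 2.14-fold, Krt7 1.64-fold and Cd24a 1.62-fold higher in the Usp5 knockout than in the Ythdf1 knockout, and Krt18 stood at 81.3% of its Ythdf1 knockout level. Of the 9 tested members, 5 were higher and 2 lower in the Usp5 knockout, against 23.3% higher and 25.2% lower among all tested genes. CPM ranges did not overlap for 7 of the 9, against 59% of all tested genes.

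The differences in Krt19 and Krt7 had log2 values of 1.75 ± 0.14 and 0.71 ± 0.09 (SE; edgeR, adjusted p = 8.45e-06 and 0.000109). For Spp1 the value was 1.09 ± 0.10 and for Cd24a 0.69 ± 0.18 (SE; edgeR, adjusted p = 2.4e-05 and 0.00943). These 4 kept their call under all 18 alternatives. Epcam had 22.1, 20.1 and 24.04 CPM in the Usp5 knockout and 17.9, 17.5 and 18.6 CPM in the Ythdf1 knockout. Its log2 difference of 0.30 ± 0.09 (SE; edgeR, adjusted p = 0.0208) was lost without Usp5 knockout replicate 3 (adjusted p = 0.0714) or Ythdf1 knockout replicate 1 (0.0541).

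Krt18 was lower in the Usp5 knockout by a log2 difference of -0.30 ± 0.08 (SE; edgeR, adjusted p = 0.0108). The call was lost without Ythdf1 knockout replicate 1 (adjusted p = 0.0623) or replicate 3 (0.0727) and with no low-count filter (0.081), and after the GC and length correction the sign turned, at 0.05 (adjusted p = 0.636). Krt8 did not pass, at 0.10 ± 0.09 (SE; edgeR, adjusted p = 0.426), but did after the correction, at 0.39 (0.000494). Sox9 did not pass either, at 0.49 ± 0.22 (SE; edgeR, adjusted p = 0.0949). It passed under 4 of 18 alternatives, one of which left out control replicate 3 (0.0221). Prom1 passed at -1.52 ± 0.55 (SE; edgeR, adjusted p = 0.0407), with overlapping ranges, and lost the call under 11 of 16 alternatives, so at 10 and 24 counts it is uncertain.

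A ratio within a library does not depend on how the library is scaled, and the balance of type II to type I keratin was examined that way. In counts per kilobase, Krt8 stood to Krt18 at 0.592, 0.552 and 0.573 in the Usp5 knockout, at 0.442, 0.424 and 0.439 in the Ythdf1 knockout and at 0.580, 0.576 and 0.526 in controls. The Ythdf1 knockout lay below every other library. Its mean log2 ratio was -1.20 ± 0.03, against -0.84 ± 0.08 in controls (SD, n = 3 each), a difference of -0.37 (exact two-sided permutation test, p = 0.1, the smallest that 3 against 3 allows; 0.15 adjusted over 3 pairs of groups). After the GC and length correction the fitted log2 fold changes of Krt8 and Krt18 still differed by -0.33 in this comparison.

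In the Usp5 knockout the mean log2 ratio was -0.81 ± 0.05, which overlapped the controls (difference 0.03; exact permutation test, p = 0.7), and the sign of that difference turned without control replicate 3 (-0.015). The summed type II members Krt7 and Krt8 over the summed type I members Krt18, Krt19 and Krt23 gave a log2 ratio of -0.64 ± 0.05 in the Usp5 knockout, -1.09 ± 0.03 in the Ythdf1 knockout and -0.71 ± 0.07 in controls. The exact permutation p was 0.3 for the Usp5 knockout and 0.1 for the Ythdf1 knockout, each against control.

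**Figure D3:**
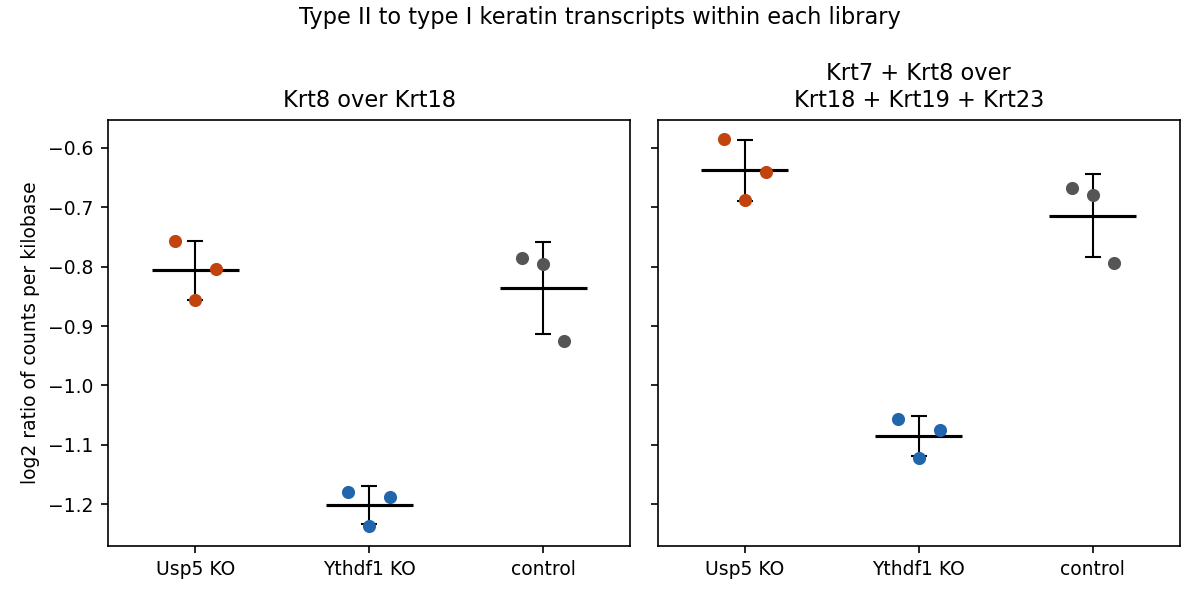
Log2 ratio of type II to type I keratin counts per kilobase in each library (y axis) by group; dots are libraries, horizontal lines are means and bars are SD (n = 3). The 3 Ythdf1 knockout libraries lie between -1.24 and -1.18 for Krt8 over Krt18, below all others.

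The rest of the keratin family was read to place the members. Of 49 other keratin genes in the table, 40 had at least 1 count, 14 were tested and 9 reached a mean of 1 CPM in some group. Krt8 and Krt18 together made up 88.6% to 89.3% of all keratin TPM in the Usp5 knockout, 92.8% to 93.1% in the Ythdf1 knockout and 89.8% to 90.7% in controls. The next most abundant keratin was no member: Krt20, a type I keratin of intestinal epithelium, stood at 157 ± 9.51 TPM in the Usp5 knockout, 108 ± 1.96 TPM in the Ythdf1 knockout and 156 ± 7.77 TPM in controls (SD, n = 3 each). It was lower in the Ythdf1 knockout by a log2 fold change of -0.26 (edgeR, adjusted p = 0.0106) and did not pass in the Usp5 knockout, at 0.12 (0.234).

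Of the 14 tested, 2 were higher and 4 lower in the Usp5 knockout (42.9% passing, against 19.8% of all genes). In the Ythdf1 knockout 5 were higher and 5 lower (71.4%, against 46.5%). Of those 5 higher, 4 (Krt6a, Krt15, Krt16 and Krt42) reached the low-count filter of 0.352 CPM in the 3 Ythdf1 knockout libraries and in no other library, so that they had to be higher there and their calls are no support. Krt12, among the 5 lower, reached it in 2 control libraries, 1 Usp5 knockout library and no Ythdf1 knockout library. Its call is therefore no support either, and the 71.4% includes these calls. Krt14 and Krt80 were lower in both: Krt14, a keratin of basal cells, averaged 0.540 ± 0.261 CPM in the Usp5 knockout, 0.755 ± 0.174 CPM in the Ythdf1 knockout and 3.46 ± 0.891 CPM in controls. Krt5, the type II partner of Krt14, was higher in the Usp5 knockout by 0.65 on the log2 scale (edgeR, adjusted p = 0.00284), at 20.1 ± 2.23 CPM against 12.8 ± 0.820 CPM in controls. The hair keratin Krt33b was higher in the Usp5 knockout (log2 fold change 1.64; edgeR, adjusted p = 6.92e-05) and lower in the Ythdf1 knockout (-0.71; 0.00778). Krt16, a keratin of stressed epidermis, had 0 counts in the Usp5 knockout and 24 in controls. After scaling, the control counts were 6.88 times the floor of 3 counts, with counting error allowing a ratio down to 5.18 (95% interval). Krt16 averaged 1.19 CPM in the Ythdf1 knockout and 0.223 CPM in controls. Krt76, which reached the filter in all Ythdf1 knockout and control libraries, was higher in the Ythdf1 knockout by 1.06 on the log2 scale (edgeR, adjusted p = 0.0353). Keratin genes are similar in sequence and reads can be shared between them. A pseudogene of Krt8 (Krt8-ps) held 21 to 51 counts per library, against at least 19120 for Krt8.

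**Figure D4:**
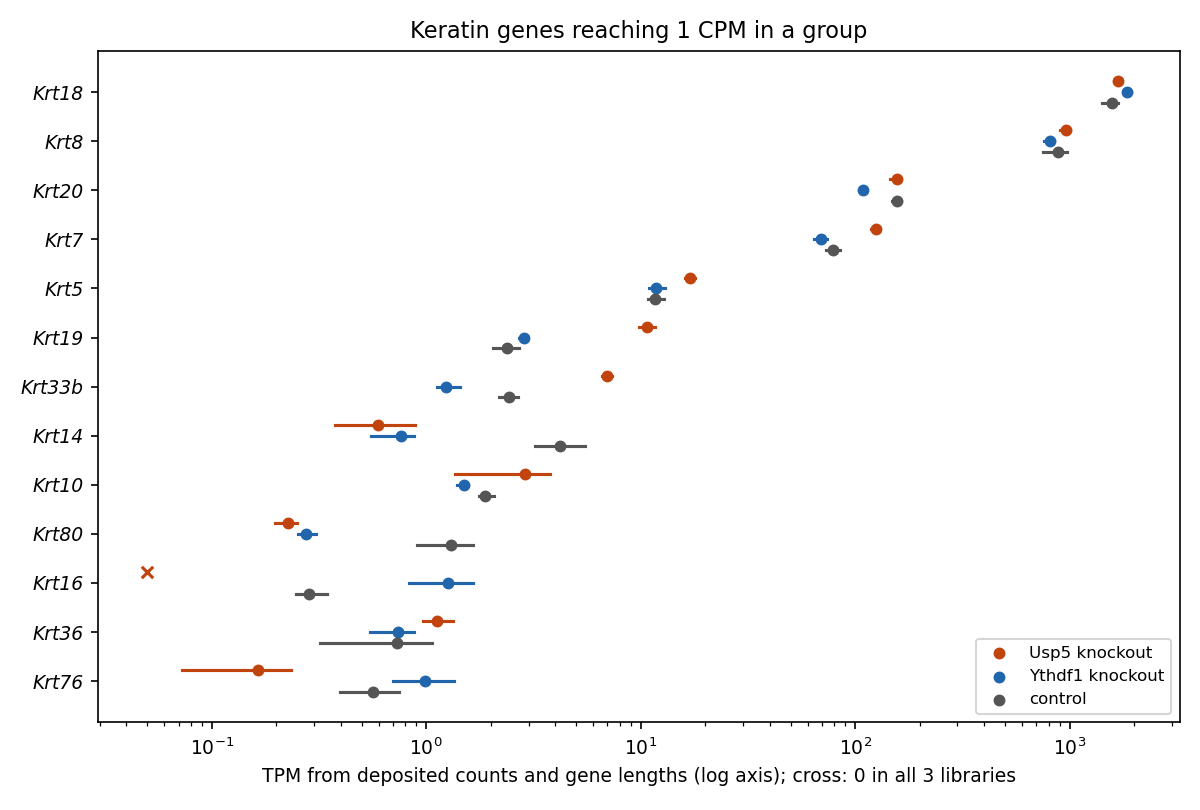
Level per transcript length of the 13 keratins that reached a mean of 1 CPM in a group, on a log axis in TPM; dots are group means, lines span the 3 libraries, and a cross marks 0 counts. Krt18 and Krt8 lead, followed by Krt20 and Krt7, and Krt19 and Krt33b of the Usp5 knockout lie right of the other groups.

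Desmosomes and hemidesmosomes anchor keratin filaments at the membrane. Their genes were counted together with Tchp and Fam83h, which encode keratin-binding proteins. In the Usp5 knockout 7 of these 15 tested genes were higher and 0 were lower (46.7% passing, against 19.8% of all genes). The median log2 fold change was 0.22. Integrin beta 4 (Itgb4), the hemidesmosome receptor, rose by 1.03 on the log2 scale, the desmosome plaque protein plakophilin 1 (Pkp1) by 0.99 and desmocollin 2 (Dsc2) by 0.69. Plakoglobin (Jup) and desmoplakin (Dsp), which join cadherins to keratin, rose by 0.43 and 0.37. In the Ythdf1 knockout 6 of 15 were higher and 2 lower (53.3%, against 46.5% of all genes). Tchp and Fam83h were among the higher, at 0.59 and 0.29. Itgb4 rose by 0.89, envoplakin (Evpl) by 0.88 and Jup by 0.68, while Pkp1 fell by 1.46 and integrin alpha 6 (Itga6), the partner of Itgb4, fell by 0.93. Of 6 tested genes of other intermediate filaments, 1 was higher and 1 lower in the Usp5 knockout (33.3% passing, against 19.8% of all genes). In the Ythdf1 knockout 1 was higher and 3 lower (66.7%, against 46.5%). Vimentin (Vim), the filament of mesenchymal cells, averaged 262 CPM in the Usp5 knockout, 75.0 CPM in the Ythdf1 knockout and 126 CPM in controls, with log2 fold changes of 1.06 and -0.75.

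Other genes of bile duct cells did not share one direction. Of 31, 21 were tested. In the Usp5 knockout 2 were higher and 3 lower (23.8% passing, against 19.8% of all genes). In the Ythdf1 knockout 7 were higher and 6 lower (61.9%, against 46.5%). Pkhd1, which encodes fibrocystin of the ductal cilium, rose by 0.80 in the Usp5 knockout and the membrane linker ezrin (Ezr) by 0.70, while the epithelial factor Elf3 fell by 0.67 and the tight junction gene Cldn4 fell by 0.59. In the Ythdf1 knockout Cldn4 rose by 1.91, Ezr by 0.89 and the hepatobiliary factor Onecut2 by 0.60, whereas Dcdc2a fell by 2.07, the epithelial factor Grhl2 fell by 2.06 and polycystin 2 (Pkd2) fell by 0.71.

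Among 17 progenitor and oncofetal genes, 8 were tested. Of these, 50% passed in the Usp5 knockout, against 19.8% of all genes, and 62.5% in the Ythdf1 knockout, against 46.5%. In the Usp5 knockout 2 were higher and 2 lower: Igf2 rose by 1.26 and Alcam by 1.01, and glypican 3 (Gpc3), a fetal liver proteoglycan, fell by 2.26 and Icam1 fell by 1.04. In the Ythdf1 knockout 4 were higher and 1 lower: Icam1 rose by 0.77, Tnfrsf12a by 0.72, alpha-fetoprotein (Afp) by 0.46 and Gpc3 by 0.31, and Cd44 fell by 0.51. Of 8 tested receptors of osteopontin, 3 were lower and 0 higher in the Usp5 knockout (37.5% passing, against 19.8% of all genes). Spp1 was higher there. In the Ythdf1 knockout, where Spp1 was lower, 5 were lower and 0 higher (62.5%, against 46.5%). Integrin beta 3 (Itgb3) had log2 fold changes of -1.65 in the Usp5 knockout and -1.30 in the Ythdf1 knockout, and integrin beta 6 (Itgb6) of -0.72 and -1.27. Cd44, which is also on the progenitor list, did not pass in the Usp5 knockout, at 0.30 (edgeR, adjusted p = 0.124).

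Genes of the Notch pathway, which directs cells of the fetal liver to the bile duct, and of the proteases that cut Epcam were read as well. Of 14 tested Notch genes, 1 was higher and 4 lower in the Usp5 knockout (35.7% passing, against 19.8% of all genes). In the Ythdf1 knockout 6 were higher and 1 lower (50%, near the 46.5% of all genes). The target gene Hes1 rose in both, by 0.55 and 0.82. Notch3 fell by 1.86 in the Usp5 knockout and rose by 1.26 in the Ythdf1 knockout, and Notch1 likewise fell by 0.92 and rose by 0.48. The receptor gene Notch4 was the 1 lower in the Ythdf1 knockout, at -2.62 (edgeR, adjusted p = 5.97e-05), and did not pass in the Usp5 knockout, at 0.05 (0.906). The ligand gene Dll1 was at -1.28 in the Usp5 knockout and 0.68 in the Ythdf1 knockout, and passed in both. The ligand Jag1 rose by 0.68 in the Ythdf1 knockout and did not pass in the Usp5 knockout, at 0.07 (edgeR, adjusted p = 0.525). Of 11 genes of Epcam cleavage and its signalling, 1 was higher and 2 lower in the Usp5 knockout (27.3%, against 19.8% of all genes). In the Ythdf1 knockout 5 were higher and 4 lower (81.8%, against 46.5%). The sheddase Adam10 fell in both, at -0.37 and -0.64, and Adam17 fell by 0.64 in the Ythdf1 knockout.

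Markers of other cell types were summed to see what else the cultures might hold. Of 10 leukocyte markers, summed levels were 10.3 to 11.7 CPM in the Usp5 knockout, 15.4 to 17.1 CPM in the Ythdf1 knockout and 13.1 to 15.6 CPM in controls, with 4, 3 and 3 of the 10 at 0 in the Usp5 knockout, the Ythdf1 knockout and controls, Cd3e and Tyrobp among them, and Ptprc, the common leukocyte marker, at no more than 0.163 CPM on average. Of 10 endothelial markers, the sums in the same order of groups were 1.505 to 1.74, 2.00 to 2.68 and 1.53 to 1.67 CPM, with 6, 2 and 1 of the 10 at 0. None of the tested leukocyte (4) and endothelial (2) markers passed in edgeR in either knockout against control. The sum of 10 stellate cell markers was 1084 to 1415 CPM in the Usp5 knockout, 1062 to 1290 CPM in the Ythdf1 knockout and 857 to 1269 CPM in controls. Nearly all of it was decorin (Dcn), while the collagens Col1a1, Col1a2 and Col3a1 and smooth muscle actin (Acta2) averaged below 1 CPM in each group. Of 4 tested stellate markers, 25% passed in each knockout against control, where 19.8% (Usp5) and 46.5% (Ythdf1) of all genes did. Rgs5 was lower in the Usp5 knockout, with 4 counts against 84 in controls (edgeR, adjusted p = 0.000172). It reached the low-count filter in no Usp5 knockout library and in all others. Desmin (Des) was lower in the Ythdf1 knockout, at -1.46 on the log2 scale (edgeR, adjusted p = 0.00149). Hepatocyte markers, 10 of 12 matched, summed to 1377 to 1588 CPM in the Usp5 knockout, 1859 to 2121 CPM in the Ythdf1 knockout and 999 to 1199 CPM in controls. Of 8 tested, 2 were higher and 1 lower in the Usp5 knockout (37.5% passing, against 19.8% of all genes). In the Ythdf1 knockout 6 were higher and 0 lower (75%, against 46.5%). Of those 6, Ttr and Serpina1a reached the low-count filter in no library outside the Ythdf1 knockout, so their calls are no support. Albumin (Alb) was higher in both, by 0.66 and 1.08 on the log2 scale. The part of these markers in the members' values was not tested.

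As a description over the 9 libraries, with groups and controls shared among the points, Krt7 and Krt19 had a Pearson correlation of log2 CPM of 0.97, Spp1 and Cd24a of 0.83, and Krt18 and Cd24a of -0.85. Krt8 and Krt18 had 0.51, less than Krt8 had with Epcam (0.74), Krt7 (0.73) or Krt19 (0.72). Epcam had 0.78 with Krt19, 0.74 with Sox9 and 0.69 with Krt18, and Krt19 had 0.75 with Sox9. Among 12002 protein-coding genes, the 3 most like Krt19 included Pcsk6 and Ano1 (0.99 each). Epcam was closest to Itgb4, Hnf4a and Ccn2 (0.99 each), and Cd24a to Peak1, Orc3 and Mki67 (0.99 each). Sox9 was closest to Med12, Cnot3 and Rabl6 (0.996, 0.996 and 0.995), and Spp1 to Naip6, Fbxo45 and Pgap1 (0.99 each).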

How the data were processed

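Per the labels, total RNA was treated with DNase and made into mRNA libraries. The authors deposited 1 table of estimated counts per gene, as whole numbers, with gene lengths in bases; no further rounding was needed. fastp 0.23.2, STAR 2.7.10a, Salmon 1.9.0 and build GRCm39 are named in the submitters' processing notes, with no role or order. No source used here states whether counting used strand.

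Columns were matched by description and groups taken from titles. Nothing says that replicates were separate cultures. The p-values set a difference between groups against the variation of these samples within groups, and that variation may be only technical. Counts were tested in edgeR 4.0.16 (R 4.3.3), with TMM scaling, filterByExpr, and the quasi-likelihood test over all 9 samples with group as its term, with p adjusted by the method of Benjamini and Hochberg over 13661 genes and a threshold of 0.05. CPM is scaled by TMM; TPM uses the deposited lengths and no further scaling. SE is the log2 fold change over the root of F. Intervals (95%) and floors (3 counts) cover counting error only.

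The members, lists and tests were chosen with earlier results of these data known. All members are named; from each list up to 3 passing genes per direction with at least 1 CPM, keratins with at least 1 CPM, and the 3 genes most correlated with a member; some genes the rule selects are not reported here. Jup and Dsp in the Usp5 knockout, Gpc3 in the Ythdf1 knockout, Notch1, Jag1 and Alb in the Ythdf1 knockout, Rgs5, the keratins named for the filter, and members named because they did not pass were chosen after their values were seen. Alternatives were DESeq2 1.42.0, limma-voom (limma 3.58.1), RLE scaling, scaling by library size only, other filters, fewer samples and a replicate block. A GC and length correction, with GC from GENCODE M21 transcripts for 13642 genes, was added after seeing the data. The test was checked on simulated data, for each knockout against control. It recovered 74% (Usp5) and 72% (Ythdf1) of 2-fold changes and 40% and 41% of 1.5-fold changes. In each it called 5 unchanged genes. A gene that did not pass may therefore still differ by such a fold.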

Additional observations from a re-analysis of the deposited data

How the results depend on the processing

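Over 482 alternative values for the 9 tested members, 432 kept both direction and side of the threshold. Reversals were confined, among those run, to members that had not passed and to Krt18 between the knockouts, which is given above. Cd24a in the Usp5 knockout lay between -0.18 and 0.20 with 1 library left out (0.20 without control replicate 3; 0.027 when replicate 1 of the knockout was dropped) and at 0.017 after the GC and length correction. Krt7 in the Ythdf1 knockout was -0.069 with library sizes alone and between -0.017 (without Ythdf1 knockout replicate 1) and 0.11 with 1 library left out. Krt8 there was -0.0051 with library sizes alone and -0.21 after the correction. Krt18 between the knockouts was 0.045 after the correction; the cause was not tested. Krt19 in the Ythdf1 knockout did not pass with library sizes alone (adjusted p = 0.0747), no filter (0.104) or only the 6 samples compared (0.0579). Library sizes alone moved the median of all genes to -0.10 in the Usp5 knockout and -0.12 in the Ythdf1 knockout and the share of calls that were higher to 35.9% and 34.0%, against 50.4% and 50.9%. The Usp5 count of 2700 genes was 1756 with only the 6 samples compared and between 1494 and 4371 with 1 library left out: 1736 without control replicate 1, 1494 without control replicate 2, 4371 without control replicate 3 and 1626 when Usp5 knockout replicate 2 was dropped. The Krt8 to Krt18 difference between Usp5 knockout and control was -0.015 to 0.055 over those fits. Counts after the GC and length correction were 3446, 5824 and 6630 in the 3 comparisons, with 2473, 4253 and 5141 genes shared with 2700, 6350 and 6627.

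Samples with the same number did not all deviate together: correlations of their deviations lay between -0.26 and 0.30. Pairs numbered 1 were all positive, at 0.298, 0.127 and 0.190, while pairs of the other numbers took both signs. Not every sample correlated best with its own number, and the main fit used the numbers only as names. With a replicate block 2346, 6198 and 6458 genes passed, Prom1 lost its call between the knockouts (adjusted p = 0.0511), and no other call on a member changed. The paired keratin ratios kept their differences, with sign-flip p from 0.25 to 0.75. At 10 to 51 counts a group for Prom1 and 0 to 7 for Krt23, depth limits what can be said of both.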

Other observations

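The nearest tested genes beside the members in chromosome order (from RefSeq, build GRCm38.p6, order only) gave these values. Untested genes in between were passed over. Eif4b, which follows Krt18, stood at 0.09 on the log2 scale in the Usp5 knockout against control (edgeR, adjusted p = 0.455). In the Ythdf1 knockout it stood at -0.70 (edgeR, adjusted p = 7.05e-05), where Krt18 was at 0.51. Before Epcam, Ttc7 and Calm2 did not pass in the Usp5 knockout, at log2 fold changes of -0.02 and 0.32, and in the Ythdf1 knockout Ttc7 was higher at 0.67 and Calm2 did not pass, at 0.14. Among tested genes, Krt19 lies between Krt15 and Krt14 in the type I cluster. Krt14 was lower in both knockouts, at -2.62 and -2.20, where Krt19 was at 2.28 and 0.53. Around Spp1, Hsd17b11 was higher in the Usp5 knockout at 0.31, and Pkd2 was lower in the Ythdf1 knockout at -0.71.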
